A study of Mus musculus with 2 samples.

Results

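The genes described here encode the signalling part of the T cell receptor and its first kinases: the receptor subunits Cd3e, Cd3d, Cd3g and Cd247, the co-receptors Cd4 and Cd8b1, the kinases Lck and Zap70 and the membrane adaptor Lat. They were taken by symbol from the deposited gene list, where all 9 were found among 27998 genes. Their transcripts were counted in cells sorted from Foxp3Cre-YFP mice of strain C57BL/6, 5 to 8 weeks old, in which Cre recombinase and a yellow fluorescent protein are made from the Foxp3 locus, active in regulatory T cells (Treg cells). The groups were B16 melanoma (a transplanted tumour line) at day 14 and lymph nodes of unchallenged animals, with 1 library each. Both groups carried the same reporter allele. Neither the gate of the sort nor how many mice were pooled is stated in the labels. Since each tissue has a single library, nothing could be tested against replicates; no p-value appears, and genes are called by size alone.

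The receptor's antigen-binding chains have almost no cytoplasmic tail and signal through the CD3 subunits, whose tails carry tyrosine motifs. Lck, bound to the tail of CD4 or of the CD8 alpha chain, phosphorylates these motifs. Zap70 docks on them and phosphorylates Lat, on which the downstream signalling complex assembles. In mouse Treg cells, signals through this receptor are needed for full suppressive activity. Cd8b1 encodes the beta chain of CD8, a co-receptor that marks the cytotoxic lineage and is normally paired with the alpha chain encoded by Cd8a.

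Cells were droplet barcodes with at least 3834 unique molecular identifiers (UMIs, 1 per captured transcript) in tumour or 1811 in lymph node, a minimum of 200 genes and no more than 10% of UMIs from mitochondrial genes. Barcodes past set numbers of melanoma, macrophage or B cell UMIs were left out (15 melanoma and 3 macrophage barcodes of tumour, 2 macrophage and 9 B cell barcodes of lymph node). This kept 1457 tumour cells with a median of 8766 UMIs and 2202 lymph node cells with a median of 4100 UMIs. A CD3 UMI was found in every cell of both libraries, although the rule did not ask for one. At full depth all 15 melanoma barcodes also had a Cd3d UMI, and 2 of 9 B cell barcodes a Cd3e UMI. Presence of such a UMI alone therefore does not mark a T cell. The count of 0 cells without CD3 allows shares of up to 0.253% in tumour and 0.167% in lymph node (Clopper-Pearson bound). The Treg gene Ikzf2 (Helios) was detected in 97.6% of tumour cells and 72.6% of lymph node cells, whereas the reporter locus itself, Foxp3, gave a UMI in 16.7% of tumour cells and 9.58% of lymph node cells. Cells with at least 3 UMIs over 20 mitotic genes are called cycling. They were 816 tumour cells (56.0%) and 94 lymph node cells (4.27%), and they were deep, with medians of 12994 UMIs in tumour and 13237 in lymph node, against 5993 UMIs in other tumour cells and 3996 in other lymph node cells. The tissues thus differed in depth and in cycling share as well as in origin, and these cannot be told apart in pooled values.

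Cd3g, Cd3d and Cd3e lie next to each other on chromosome 9 of the mouse genome (GRCm38, which mm10 denotes; GENCODE M21). Cd3g (chr9:44969572-44980431, minus strand) and Cd3d (chr9:44981786-44987339, plus strand) are read away from each other, with starts 1355 bases apart, and Cd3e (chr9:44998740-45009627, minus strand) starts 29196 bases from Cd3g. The promoters of these 3 genes are shown because neighbours at 1 locus had unlike ratios between the tissues. Those of Zap70 and Lck are shown because these kinases differed in opposite directions in pooled cells. Each runs from 250 bases before the transcript start to 50 after it, 5′ to 3′ on the gene's own strand (RefSeq, GRCm38.p6). Capitals mark letters searched on both strands: AGGAAG or CGGAAG (an ETS core), TGTGGT or TGCGGT (a RUNX core) and CAGCTG or CAGGTG (an E box), with reverse complements such as CTTCCT and CACCTG.
Cd3g promoter (chr9:44980382-44980681, minus strand): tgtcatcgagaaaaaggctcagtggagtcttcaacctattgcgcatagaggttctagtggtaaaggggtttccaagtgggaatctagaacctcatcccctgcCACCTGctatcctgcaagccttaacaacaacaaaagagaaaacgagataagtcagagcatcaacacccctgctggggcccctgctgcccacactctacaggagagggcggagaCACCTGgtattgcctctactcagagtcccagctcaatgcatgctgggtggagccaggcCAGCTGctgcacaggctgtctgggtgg
Cd3d promoter (chr9:44981536-44981835, plus strand): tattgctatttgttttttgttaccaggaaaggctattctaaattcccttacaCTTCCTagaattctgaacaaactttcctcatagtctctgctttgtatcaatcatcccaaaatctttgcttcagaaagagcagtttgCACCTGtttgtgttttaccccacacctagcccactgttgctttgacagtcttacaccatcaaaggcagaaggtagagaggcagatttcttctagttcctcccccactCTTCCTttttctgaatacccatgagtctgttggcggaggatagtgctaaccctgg
Cd3e promoter (chr9:45009562-45009861, minus strand): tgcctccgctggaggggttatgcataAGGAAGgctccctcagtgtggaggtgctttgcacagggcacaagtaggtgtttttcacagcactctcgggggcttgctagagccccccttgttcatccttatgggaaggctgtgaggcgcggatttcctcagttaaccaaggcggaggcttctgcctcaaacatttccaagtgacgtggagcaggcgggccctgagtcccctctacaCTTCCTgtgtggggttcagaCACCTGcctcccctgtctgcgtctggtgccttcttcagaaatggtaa
Zap70 promoter (chr1:36761548-36761847, plus strand): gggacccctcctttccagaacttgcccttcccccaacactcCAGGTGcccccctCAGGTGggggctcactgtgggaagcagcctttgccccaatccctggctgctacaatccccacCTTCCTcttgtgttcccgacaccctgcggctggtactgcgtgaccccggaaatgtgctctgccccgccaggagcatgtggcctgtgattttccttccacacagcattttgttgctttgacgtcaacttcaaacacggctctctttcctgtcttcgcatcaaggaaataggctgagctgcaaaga
Lck promoter (chr4:129573592-129573891, minus strand): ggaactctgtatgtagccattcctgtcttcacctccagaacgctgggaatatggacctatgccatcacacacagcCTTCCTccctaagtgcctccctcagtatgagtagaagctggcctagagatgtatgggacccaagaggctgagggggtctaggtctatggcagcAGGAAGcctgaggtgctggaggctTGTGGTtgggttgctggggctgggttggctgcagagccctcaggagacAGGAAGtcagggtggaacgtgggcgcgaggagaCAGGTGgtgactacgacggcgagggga

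No marked match overlaps another in these windows. Cd3g held 3 E boxes and no ETS core, whereas its neighbour Cd3d held 2 ETS cores and 1 E box, as did Cd3e. The first Lck start, the distal one, held 3 ETS cores, 1 RUNX core and 1 E box, and the first Zap70 start 1 ETS core and 2 E boxes. Such letters are common: of 32851 promoter windows of the same length, 46.5% held an ETS core, 32.9% an E box and 22.4% a RUNX core. The table holds 7 of the 9 genes, among them Cd247 on chromosome 1 and Lat on chromosome 7, each with 2 ETS cores. Lck has a second start in the table and Zap70 has 3; UMIs read from transcript 3′ ends do not tell which start was used.

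Between the tissues Zap70, Cd4 and Cd3g stood higher in tumour, with ratios of 1.64, 1.50 and 1.36, and the other members differed by less. The quantity compared is CPM, a gene's summed UMIs per 1000000 UMIs of the same cells. A ratio is tumour over lymph node, and its 95% interval (exact conditional binomial) covers counting error only. None of the 9 genes was 2-fold apart, whereas 13.2% of 9976 genes with at least 50 UMIs were at least 2-fold higher in tumour, 7.7% were at least 2-fold lower and 20.9% were apart in either direction. On 9 genes, nothing particular to them is read from this count. The median log2 ratio of the 9 was 0.15, against 0.14 over all genes tested. Zap70 had the largest difference of the 9, with a log2 ratio of 0.71; 67.7% of genes tested differed less.

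**Figure D1:**
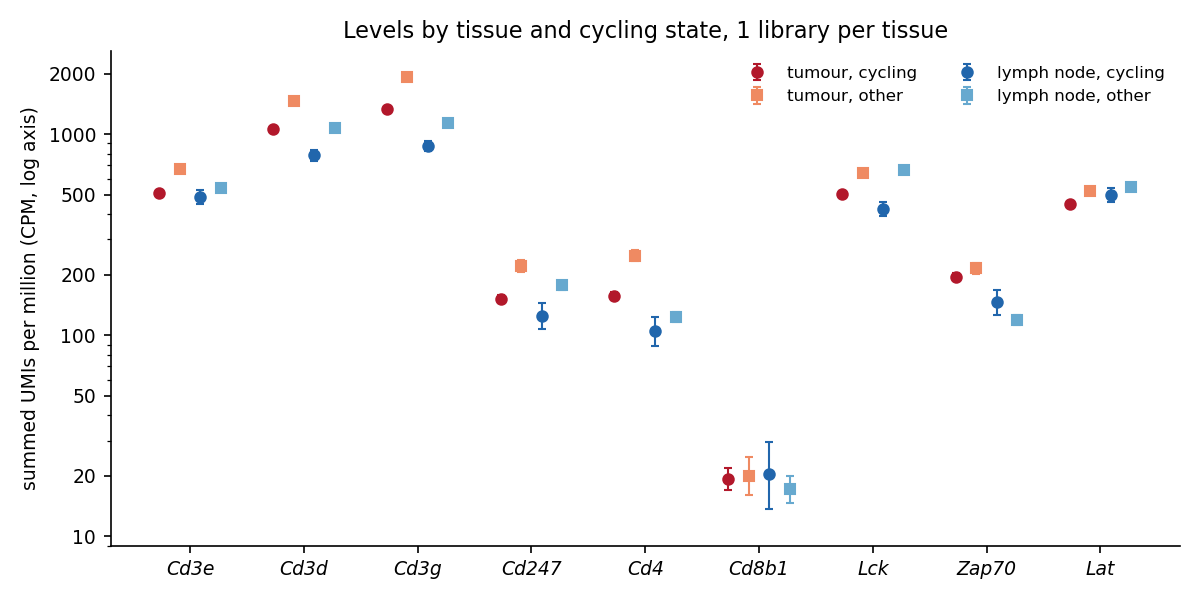
Levels of the 9 genes in CPM (log axis) for cycling and other cells of B16 tumour (red, orange) and of lymph node (dark and light blue), each point 1 sum over cells with its exact Poisson 95% interval. Zap70, Cd4 and Cd3g stand higher in tumour than in lymph node for both states, and Cd8b1 is at about 20 CPM throughout.

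Of the receptor subunits, Cd3g was the one that differed most. Cd3g encodes the CD3 gamma chain and was at 1491 CPM in tumour (24858 UMIs) and 1098 CPM in lymph node (11729 UMIs), a ratio of 1.36 (1.33 to 1.39). Cd3d, the delta chain, was at 1160 CPM in tumour and 1041 CPM in lymph node, a ratio of 1.11 (1.09 to 1.14). The CPM ratios of these 2 genes stayed above 1 under all 10 alternatives tried for them. Cd3e, the epsilon chain that pairs with both, was at 552 CPM in tumour and 534 CPM in lymph node, a ratio of 1.04 (1.002 to 1.07). Cd247, the zeta chain that carries most of the tyrosine motifs, was at 170.0 CPM in tumour and 170.7 CPM in lymph node, a ratio of 0.996 (0.939 to 1.06). The sign for Cd3e turned under 3 of 10 alternatives, TMM scaling among them, and that for Cd247 under 7, so no direction is given for either.

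Summed, the 4 subunits were at 3373 CPM in tumour and 2843 CPM in lymph node, and their mix differed too. Cd3g made up 44.2% of all CD3 UMIs in tumour (43.8% to 44.6%, Clopper-Pearson) and 38.6% in lymph node (38.1% to 39.2%). Cd3e made up 16.4% in tumour and 18.8% in lymph node, and Cd247 5.04% in tumour and 6.00% in lymph node. There were 1.29 Cd3g UMIs per Cd3d UMI in tumour (1.26 to 1.31) and 1.05 in lymph node (1.03 to 1.08). Counts from transcript ends carry no length term, so these quotients are of captured transcripts. Quotients within a library do not depend on its scaling, and they held within each cycling state: Cd3g per Cd3d was 1.27 in cycling and 1.32 in other tumour cells, and 1.11 in cycling and 1.05 in other lymph node cells.

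The co-receptor Cd4 was at 181 CPM in tumour (3018 UMIs) and 121 CPM in lymph node (1289 UMIs), a ratio of 1.50 (1.41 to 1.60). Among cells that were not cycling, Cd4 reached 249 CPM in tumour and 123 CPM in lymph node, a ratio of 2.03 (1.86 to 2.20), the only one of the 9 past 2-fold in that comparison. There 19.5% of 8828 genes were 2-fold apart, made up of 11.8% higher and 7.67% lower in tumour. Cd8b1 was at 19.5 CPM in tumour (325 UMIs) and 17.6 CPM in lymph node (188 UMIs), a ratio of 1.11 whose interval includes 1 (0.923 to 1.33).

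In pooled cells the 2 kinases parted. Zap70, the kinase that docks on the phosphorylated CD3 tails, was at 201 CPM in tumour (3345 UMIs) and 123 CPM in lymph node (1309 UMIs), a ratio of 1.64 (1.54 to 1.75). Lck, the kinase that acts before it, was at 543 CPM in tumour (9051 UMIs) and 632 CPM in lymph node (6749 UMIs), 1.16-fold lower in tumour (1.13 to 1.20). The tumour cells thus held 2.71 Lck UMIs per Zap70 UMI (2.60 to 2.82), against 5.16 in lymph node (4.86 to 5.47). This contrast lay in cells that were not cycling, at 2.99 in tumour (2.77 to 3.22) and 5.56 in lymph node (5.22 to 5.94). In cycling cells the quotients were 2.60 in tumour (2.48 to 2.72) and 2.90 in lymph node (2.46 to 3.42), and the intervals overlap. Lat, the adaptor that Zap70 phosphorylates, was at 467 CPM in tumour and 538 CPM in lymph node, 1.15-fold lower in tumour (1.11 to 1.19). The direction of Zap70 held under all 10 alternatives. Without cycling cells the intervals of Lck (0.973, 0.930 to 1.02) and Lat (0.958, 0.911 to 1.01) include 1. Marker lists of T cell classes moved with the tissue: the 8 Treg markers summed to 4849 CPM in tumour and 2615 CPM in lymph node, 6 markers of conventional CD4 T cells to 135 CPM in tumour and 630 CPM in lymph node, and 11 of CD8 and cytotoxic cells to 1060 CPM in tumour and 159 CPM in lymph node, with Cd8a at 0 in both. Of the last list, Nkg7 alone was at 987 CPM in tumour and 98.1 CPM in lymph node, and the other 10 genes summed to 72.9 CPM in tumour and 60.4 CPM in lymph node. Melanoma markers were at 33.4 CPM in tumour cells and B cell markers at 9.72 CPM in tumour and 18.4 CPM in lymph node cells. The part of any of these in the 9 genes' differences was not tested.

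Within cycling cells alone, 0 of the 9 were 2-fold apart between the tissues, where 12.0% of 8864 genes were (8.45% higher and 3.55% lower in tumour). Cd3g (1.54), Cd4 (1.50), Cd3d (1.34) and Zap70 (1.33) were again above 1 there, with intervals clear of 1. Lck went the other way from the pooled value: it was at 507 CPM in cycling tumour cells and 424 CPM in cycling lymph node cells, a ratio of 1.20 (1.10 to 1.31). In other cells Lck was at 645 CPM in tumour and 662 CPM in lymph node, a ratio of 0.973 whose interval includes 1 (0.930 to 1.02). The part of the cycling share, and of the depth that goes with it, in the pooled difference of Lck was not tested.

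**Figure D2:**
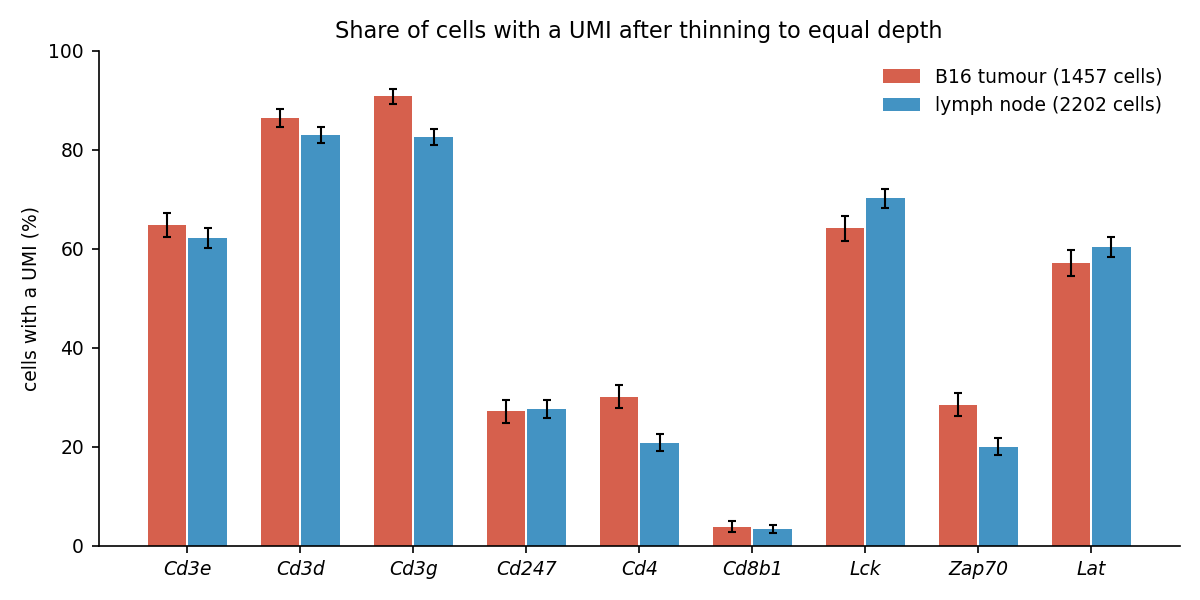
Share of cells with at least 1 UMI of each gene after every cell was thinned to 1811 UMIs, for B16 tumour (red, left) and lymph node (blue, right), with Clopper-Pearson 95% intervals. Cd3g, Cd4 and Zap70 are higher in tumour, at 90.8%, 30.1% and 28.5%, and Lck is lower, at 64.2% in tumour and 70.2% in lymph node.

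The tumour cells were deeper, so shares of cells with a UMI were compared after every cell was thinned at random to 1811 UMIs. At full depth Cd4 was detected in 82.8% of tumour cells and 40.6% of lymph node cells; thinned, in 30.1% of tumour cells (27.8% to 32.6%) and 20.7% of lymph node cells (19.0% to 22.5%). Zap70 was detected in 28.5% of thinned tumour cells and 19.98% of thinned lymph node cells, and Cd3g in 90.8% of tumour cells and 82.6% of lymph node cells. Lck was detected in 64.2% of tumour cells (61.7% to 66.6%) and 70.2% of lymph node cells (68.3% to 72.1%). Of the settings tried, this direction turned only in cells with a Foxp3 UMI, at 69.3% in tumour and 63.5% in lymph node. With cells thinned to the tumour UMI threshold instead, the Lck shares were close, at 87.9% in tumour and 88.7% in lymph node. For the other genes, the intervals of the shares at 1811 UMIs overlapped or nearly met. Cd3d was detected in 86.5% of cells in tumour and 83.0% in lymph node, Cd3e in 64.9% in tumour and 62.2% in lymph node, and Lat in 57.2% in tumour and 60.4% in lymph node. Cd247 was detected in 27.1% in tumour and 27.6% in lymph node.

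Thinned tumour cells held a median of 7 CD3 UMIs, summed over the 4 subunits, and lymph node cells 5. At this depth 14 tumour cells (0.961%) and 19 lymph node cells (0.863%) had none. Of 15 melanoma barcodes, thinned to the same depth, 2 had a Cd3g UMI and none a Cd4 UMI, and unthinned, at a median of 70488 UMIs, they held Cd3g at 46.0 CPM. None of 9 B cell barcodes had a Cd3g or a Cd4 UMI. Of 3 macrophage barcodes in tumour, 0 had a thinned Cd3g UMI, whereas both macrophage barcodes in lymph node had one and 1 of them a Cd4 UMI, at 715 CPM of Cd3g.

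**Figure D3:**
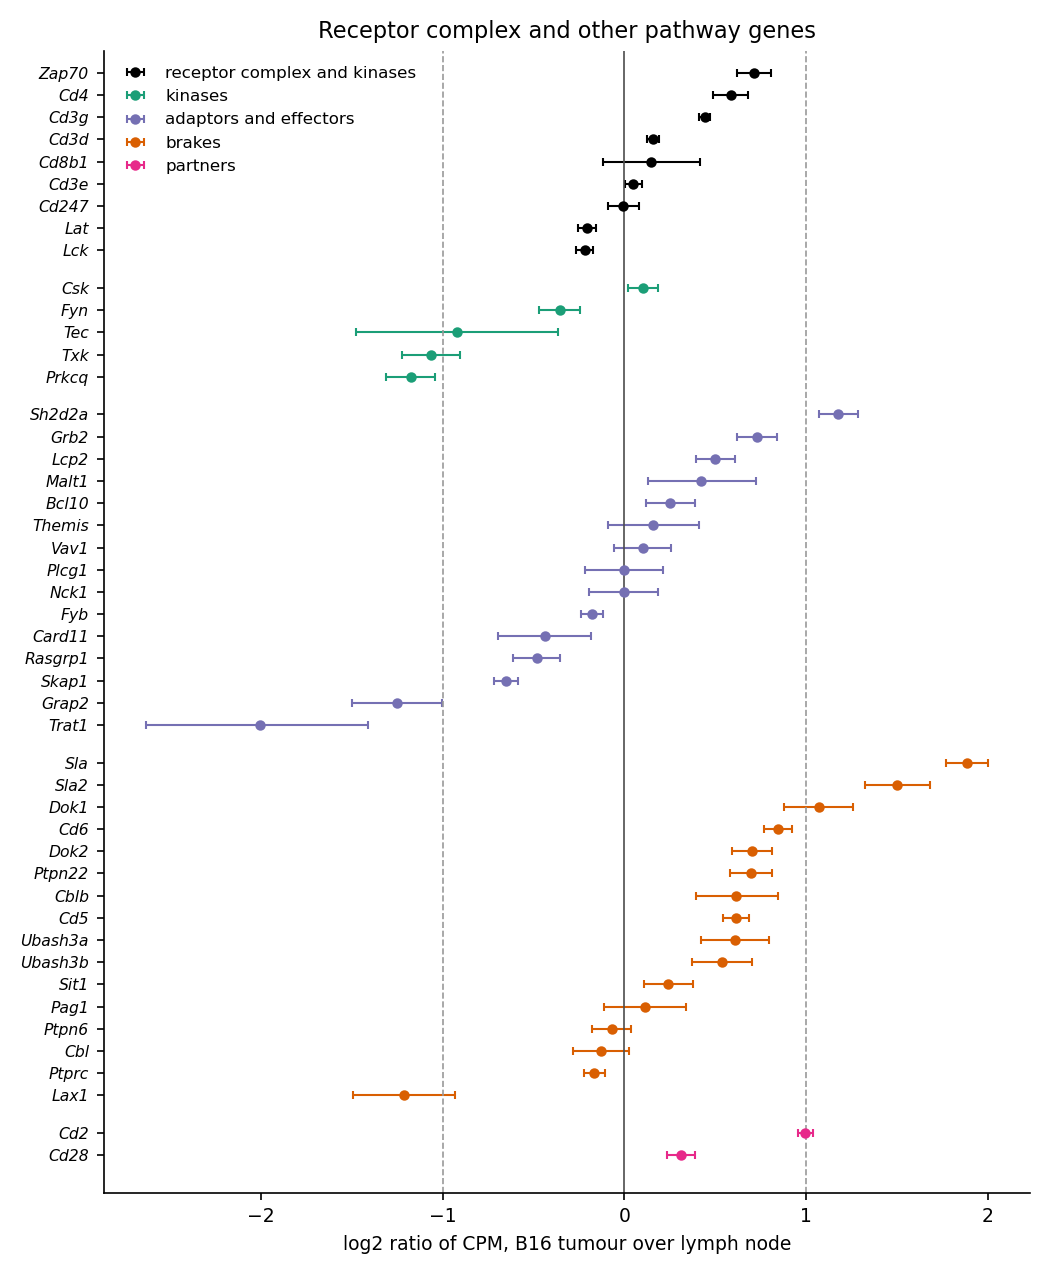
Log2 ratio of CPM, B16 tumour over lymph node, for the 9 genes (black) and for other kinases, adaptors and effectors, brakes and partners of the pathway, with 95% intervals for counting error; dashed lines mark 2-fold. The 9 genes lie between the lines, and the widest spread is among adaptors and brakes.

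Of 38 other pathway genes that passed the minimum of 50 UMIs, 9 were 2-fold apart between the tissues, a share of 23.7% that is near the 20.9% of all genes. Among 6 other kinases, 5 passed the minimum of 50 UMIs. Over all genes 13.2% were 2-fold higher and 7.7% 2-fold lower in tumour. Of the 5 kinases, none was 2-fold higher and 2 were 2-fold lower. These were Prkcq, the protein kinase C theta that links the receptor to NF-kappaB, at 46.1 CPM in tumour and 104 CPM in lymph node (2.26-fold lower, 2.06 to 2.48), and Txk, a Tec family kinase, at 33.5 CPM in tumour and 69.9 CPM in lymph node (2.09-fold lower, 1.87 to 2.34). Tec had a ratio of 0.529 on 52 UMIs in tumour and 63 in lymph node, Fyn, the other Src family kinase of T cells, one of 0.782, and Csk, the kinase that holds Lck inactive, one of 1.07 (1.01 to 1.14). Syk, the relative of Zap70 used mainly by B cells, did not pass the minimum and had 0 UMIs in tumour and 4 in lymph node. The kinase list had a median log2 ratio of -0.92, against 0.14 over all genes tested. Within cycling cells alone the median of the list was -0.13, and Txk had a ratio of 1.11 (0.794 to 1.58). None of the 4 kinases that passed there was 2-fold apart, where 12.0% of genes were. In other cells the median was -0.96, and 2 of 5 kinases were 2-fold lower, where 7.67% of genes were. There the 2 were Prkcq (ratio 0.483) and Tec (0.375, on 11 UMIs in tumour). Txk, at 0.512, was not called in that comparison.

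Of 15 adaptors and effectors, 1 was 2-fold higher in tumour, 2 were 2-fold lower and 12 lay between, with a median log2 ratio of -0.003. Over all genes 13.2% were higher and 7.7% lower, and the median was 0.14. Sh2d2a, which encodes the Lck-binding adaptor TSAd, was at 192 CPM in tumour and 85.0 CPM in lymph node (ratio 2.26, 2.10 to 2.44). Trat1, a transmembrane adaptor of the receptor, was at 1.98 CPM in tumour (33 UMIs) and 7.96 CPM in lymph node (85 UMIs), 4.02-fold lower in tumour (2.66 as the lower bound). Grap2, whose product GADS bridges Lat and SLP-76, was at 13.4 CPM in tumour and 31.8 CPM in lymph node (2.38-fold lower, 2.004 as the lower bound). Grb2, which also binds Lat, had a ratio of 1.66, and the adaptor Skap1 one of 0.637. Within cycling cells alone, none of the 14 of this list that passed was 2-fold apart, where 12.0% of genes were. Grap2 had a ratio of 0.761 there (0.484 to 1.25). In other cells 1 of 15 was 2-fold higher and 2 were 2-fold lower, where 11.8% and 7.67% of genes were.

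A list of 16 genes, most of whose products can dampen receptor signalling, is called brakes here. Of these, 3 were 2-fold higher in tumour, 1 was 2-fold lower and 12 lay between. Over all genes the shares were the same 13.2% higher and 7.7% lower. Their median log2 ratio was 0.61, beside 0.14 over all genes, and 12 of the 16 had ratios above 1. Sla, the Src-like adaptor that lowers surface receptor in thymocytes, was at 253 CPM in tumour and 68.4 CPM in lymph node (ratio 3.69, 3.41 to 3.998). Its relative Sla2 was at 84.1 CPM in tumour and 29.7 CPM in lymph node (2.83, 2.51 to 3.21). Dok1, an adaptor that recruits the Ras inhibitor RasGAP, had a ratio of 2.10 whose interval reaches below 2 (1.84 to 2.40), and Cd6, a surface receptor related to Cd5, one of 1.80. Lax1, a membrane adaptor built like Lat, was the member 2-fold lower, at 10.7 CPM in tumour and 24.7 CPM in lymph node. Among cycling cells 2 of the 16 brakes were 2-fold higher in tumour and 0 lower, where 8.45% and 3.55% of genes were. Among other cells 4 were higher, with Cd6 at 2.35 (2.20 to 2.52), and 1 lower, where 11.8% and 7.67% of genes were. Of the partners, the adhesion receptor Cd2 was at 1205 CPM in tumour and 605 CPM in lymph node. Its pooled ratio was just short of 2-fold (1.99, 1.94 to 2.05). By state it was past 2-fold, at 2.19 in cycling cells (2.03 to 2.38) and 2.71 in other cells (2.62 to 2.81). The co-stimulator Cd28 had a pooled ratio of 1.24. The receptor constant-region genes Trac, Trbc1 and Trbc2 were not found by symbol in the deposited gene list, so no level is given.

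Set against other cells of the same library, cycling tumour cells had lower CPM of 8 of the 9 genes, by less than 2-fold, while the interval of Cd8b1 included 1 (0.963, 0.750 to 1.25). In tumour 9.11% of 9142 genes were 2-fold apart between the states, made up of 7.0% higher and 2.11% lower in cycling cells. The 9 had a median log2 ratio of -0.39, cycling over other, against -0.06 over all genes tested. Cd4 was at 157 CPM in cycling and 249 CPM in other tumour cells (1.59-fold lower, 1.47 to 1.71). Cd247 was at 152 CPM in cycling and 221 CPM in other cells (1.46-fold lower), and Cd3g at 1340 CPM in cycling and 1922 CPM in other cells (1.44-fold lower). Cd3d was at 1056 CPM in cycling and 1455 CPM in other cells (1.38-fold lower), and Cd3e at 511 CPM in cycling and 671 CPM in other cells (1.31-fold lower). Lck was at 507 CPM in cycling and 645 CPM in other cells (1.27-fold lower) and Lat at 448 CPM in cycling and 521 CPM in other cells (1.16-fold lower). Zap70 differed least of the genes whose interval is clear of 1, at 195 CPM in cycling and 216 CPM in other cells (1.10-fold lower, 1.02 to 1.19).

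Depth moved with this result. In the 314 cycling and 406 other tumour cells whose UMI totals lay in the range common to both states (5101 to 11916), the log2 ratio for Cd4 was -0.07 in place of -0.67, that for Cd3g -0.13 in place of -0.52 and that for Cd247 0.07 in place of -0.54. The sign remained for 7 of the 9, all at less than 0.16 on the log2 scale. Cycling cells in that range had a median of 8648 UMIs and other cells 6839. How far total RNA per cell, rather than the mitotic state, accounts for the lower CPM was not tested.

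In lymph node the same contrast rests on 94 cycling cells. None of the 9 genes was 2-fold apart, where 15.5% of 8369 genes were (8.73% higher and 6.79% lower in cycling cells). Lck was at 424 CPM in cycling and 662 CPM in other cells (1.56-fold lower, 1.44 to 1.70), and Cd247 at 125 CPM in cycling and 177 CPM in other cells (1.42-fold lower, 1.21 to 1.67). Cd3d was at 785 CPM in cycling and 1078 CPM in other cells (1.37-fold lower), and Cd3g at 872 CPM in cycling and 1131 CPM in other cells (1.30-fold lower). Zap70 was higher, at 146 CPM in cycling and 119 CPM in other cells, a ratio of 1.23 (1.05 to 1.43). Cd8b1, on 28 cycling UMIs, had a ratio of 1.19 with an interval of 0.769 to 1.79. Lck per Zap70 was 2.90 UMIs in cycling and 5.56 in other lymph node cells, and 2.60 in cycling and 2.99 in other tumour cells. Only 21 cycling lymph node cells lay in the UMI range common to both states. In that range the log2 ratio of Cd3d was -0.11 in place of -0.46 and that of Cd3g 0.03 in place of -0.37. That of Cd3e was -0.13 in place of -0.15. Of the 9 genes, 6 had ratios below 1 there and 3 above.

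**Figure D4:**
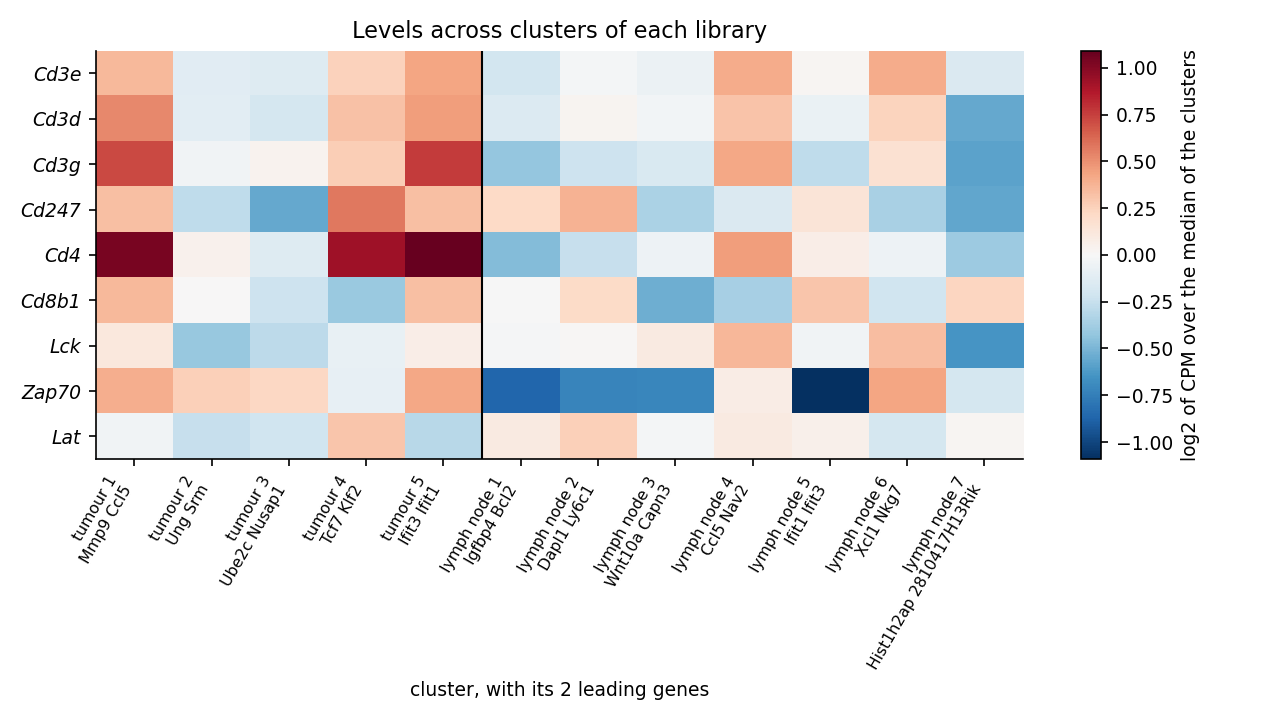
Levels of the 9 genes across clusters of each library, as log2 of a cluster's CPM over the median of the 12 clusters; the line separates 5 tumour clusters (left) from 7 lymph node clusters (right), each labelled with its 2 leading genes. Cd4 is highest in tumour clusters 1, 4 and 5, and Zap70 is low in lymph node clusters 1, 2, 3 and 5.

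Across clusters of cells, formed within each library and named here by their leading genes, most of these genes varied by about 2-fold or less. Zap70 in lymph node varied most. It was at 222 CPM in the cluster of 135 cells led by Xcl1, Nkg7 and Nr4a1 and 175 CPM in that of 406 cells led by Ccl5, Nav2 and Maf, against 77.5 CPM in the interferon-led cluster and 90.3 CPM in the largest one, led by Igfbp4 and Bcl2. In tumour, Zap70 lay between 155 CPM in the cluster led by Tcf7 and Klf2 and 221 CPM in the one led by Ifit3 and Ifit1. The 2 lymph node clusters with most Zap70 thus stood within or just above the tumour range.

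Cd4 ran from 117 CPM in the mitotic tumour cluster led by Ube2c to 274 CPM in the interferon-led one, and in lymph node from 93.0 to 176 CPM, highest in the cluster led by Ccl5. Cd3g reached 2042 and 1983 CPM in the tumour clusters led by Ifit3 and by Mmp9, and in lymph node 1604 CPM in the cluster led by Ccl5, against 801 CPM in the mitotic one. Cd247 was highest in the tumour cluster led by Tcf7 (260.4 CPM) and the lymph node cluster led by Dapl1 (227 CPM), and lowest in the mitotic clusters, at 119 CPM in tumour and 118 CPM in lymph node. Lat followed the same clusters at the top, at 631 CPM in tumour and 613 CPM in lymph node. Cd8b1 lay between 14.1 and 23.9 CPM in tumour and between 12.9 and 23.1 CPM in lymph node. These values describe clusters that were formed from the same cells, and no test was made between them.

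Over these 12 clusters, 5008 genes with at least 500 UMIs were ranked by Pearson r with each of the 9 on log2(CPM + 10). Cd3d was most like Vsir (r = 0.974), an inhibitory receptor gene, Cd3g like Grap (0.963), a relative of Grb2, and Cd4 like Sdf2 (0.971). Zap70 was most like Cyfip1 and Rilpl2 (0.957 each) and Bcl2a1b (0.956), a BCL2 family gene. Cd3e was most like Itm2c (0.912), Cd247 like Cytip (0.942), Lck like Ncoa2 (0.929) and Lat like Ppp2r5a (0.925). No gene reached 0.8 with Cd8b1, for which 2610002M06Rik had 0.776. The points share 2 libraries and the depth of their cells, so r is a description only.

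Cells with a Cd8b1 UMI held receptor and Treg transcripts at levels within 2-fold of the cells without one, and no Cd8a. They were 244 tumour cells (16.7%, 14.9% to 18.8%) and 167 lymph node cells (7.58%, 6.51% to 8.77%). Most held a single UMI: 180 tumour cells had 1, 53 had 2, 5 had 3 and 6 had 4, and 153 lymph node cells had 1, 11 had 2, 1 had 3 and 2 had 5. At so low a level a cell without a Cd8b1 UMI may still hold the transcript, so the 2 groups are in part set by sampling. Few genes of any kind were 2-fold apart between them. Likeness of the groups is therefore not read as a trait of the cells with Cd8b1. Cd8a gave 0 UMIs in all cells of both libraries. By the Clopper-Pearson bound this allows shares of up to 0.253% of tumour cells and 0.167% of lymph node cells with a UMI. Cd8a starts 35933 bases after the end of Cd8b1 on chromosome 6.

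**Figure D5:**
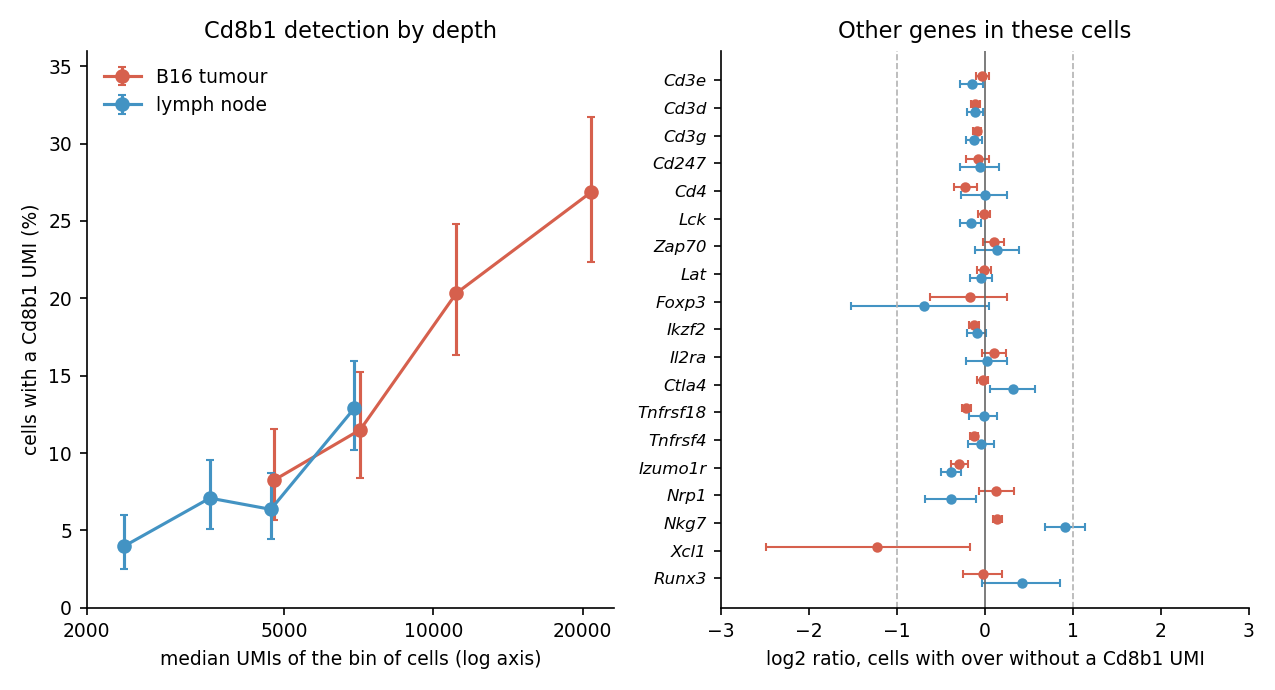
Left, share of cells with a Cd8b1 UMI in each of 4 bins of cells by UMI total (log axis, median of the bin), with Clopper-Pearson 95% intervals: the share is higher in the deepest bin than in the shallowest of both B16 tumour (red) and lymph node (blue). Right, log2 ratio of CPM of other genes in cells with over cells without a Cd8b1 UMI, with 95% counting intervals; dashed lines mark 2-fold, and all points but that of Xcl1 in tumour lie between them. The genes are the other 8 receptor genes, the Treg list and those of the CD8 T and cytotoxic list with at least 50 UMIs in each library; Xcl1 in lymph node, at 0 UMIs in cells with Cd8b1, has no point.

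Detection of Cd8b1 followed depth, while its level did not. With tumour cells split by UMI total into 4 bins of nearly equal size, from the shallowest to the deepest, 8.26%, 11.5%, 20.3% and 26.8% had a UMI, at levels of 19.1, 19.1, 24.4 and 17.3 CPM. In lymph node the 4 bins had 3.99%, 7.09%, 6.36% and 12.9%, at 17.4, 21.1, 14.6 and 17.9 CPM. Thinned to 1811 UMIs, 3.77% of tumour cells (2.86% to 4.89%) and 3.36% of lymph node cells (2.65% to 4.20%) had a UMI, and these intervals overlap.

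Barcodes of 1 to 99 UMIs, which hold free RNA, had Cd8b1 at 19.7 CPM in tumour and 14.8 CPM in lymph node, close to the cells. This was not particular to Cd8b1. In tumour these barcodes had Cd3d at 1171 CPM, against 1160 CPM in cells, and Cd247 at 172 CPM, against 170 CPM in cells. Cd3g was further off there, at 1126 CPM against 1491 CPM in cells. Among barcodes of other cell types, 1 of 15 melanoma barcodes had a Cd8b1 UMI (6.67%, 0.169% to 31.9%), at a median of 70488 UMIs, and 0 of 9 B cell barcodes, at a median of 3309 UMIs, which allows up to 33.6% (exact bound). The interval of the melanoma barcodes includes the tumour share of 16.7%, so at this number of barcodes a difference in share could not be shown. These shares are also at unlike depths. As a level, the 1 UMI of the melanoma barcodes gave 0.807 CPM (0.0204 to 4.50, exact Poisson). Tumour cells were at 19.5 CPM (17.4 to 21.7). The part of free RNA in the Cd8b1 UMIs of cells was not tested.

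Most tumour cells with Cd8b1 also carried Cd4. A Cd4 UMI was found in 84.8% of tumour cells with and 82.4% of those without Cd8b1, and in 48.5% of lymph node cells with and 39.9% of those without. Cells with Cd8b1 were deeper, at a median of 12796 UMIs against 8299 in tumour and 4908 against 4039 in lymph node. In tumour, Cd4 was at 160 CPM in cells with and 187 CPM in cells without a Cd8b1 UMI, a ratio of 0.857 (0.782 to 0.939), and in lymph node at 120.3 CPM in cells with and 120.7 CPM in cells without. Such ratios of the others were 0.926 (Cd3d) to 1.07 (Zap70) in tumour and 0.893 (Lck) to 1.10 (Zap70) in lymph node. None of the 8 other genes was 2-fold apart; of all genes tested, 0.175% were 2-fold higher and 0.897% lower in tumour cells with Cd8b1 (of 9141), and 2.28% higher and 3.07% lower in lymph node (of 8368).

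Treg markers were present in both kinds of cell. Summed over 8 genes, they were at 4508 CPM in tumour cells with Cd8b1 and 4943 CPM in those without (ratio 0.912, 0.896 to 0.928), and at 2386 CPM in lymph node cells with and 2642 CPM in those without (0.903, 0.868 to 0.940). Ikzf2 had ratios of 0.918 in tumour and 0.936 in lymph node, and Il2ra, the alpha chain of the IL-2 receptor, 1.07 in tumour and 1.01 in lymph node. Izumo1r, the folate receptor 4 gene, had ratios of 0.817 in tumour and 0.764 in lymph node. Foxp3 itself had 0.885 in tumour (0.649 to 1.19) and 0.620 in lymph node (0.348 to 1.03, on 16 UMIs in cells with Cd8b1), the lowest ratio of the list there, and both intervals include 1. Without cycling cells the log2 ratio of the list was 0.09 in tumour in place of -0.13, and -0.03 in lymph node in place of -0.15. With at least 2 Cd8b1 UMIs as the limit it was -0.07 in tumour and 0.07 in lymph node.

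Genes of the CD8 T and cytotoxic list, 11 in number, were at 1135 CPM in tumour cells with Cd8b1 and 1039 CPM in those without (ratio 1.09, 1.05 to 1.13). Nkg7, a cytotoxic granule gene, made up 3826 of the 4082 UMIs. Tumour cells were also grouped by a Cd8b1 UMI left after thinning, 55 with and 1402 without. In that grouping Nkg7 was detected in 56.4% of thinned cells with and 56.6% of those without Cd8b1. The other 10 genes of the list summed to 71.2 CPM in tumour cells with and 73.4 CPM in those without Cd8b1 (0.970, 0.842 to 1.11), and Cd8a and Eomes were at 0 in both. Xcl1, a chemokine gene, was the one member called by size, at 8 UMIs in tumour cells with and 68 in those without (ratio 0.428, 0.177 to 0.891), and at 0 UMIs in lymph node cells with and 138 in those without. Some genes of the list lay below the minimum of 50 UMIs in tumour, and the cells with Cd8b1 were the smaller group. Gzmk had 13 UMIs in tumour cells with and 12 in those without, a CPM ratio of 3.94 (1.66 to 9.44). Cd160 had 13 in cells with and 19 in cells without, a ratio of 2.49 (1.13 to 5.31). Prf1 had 4 in cells with and 32 in cells without (0.454, 0.117 to 1.28). Klrc1 had 0 in cells with and 19 in cells without, with an upper bound of 0.779 on the ratio. In lymph node the list was at 221 CPM in cells with and 151 CPM in cells without Cd8b1 (1.46, 1.28 to 1.68), and 71.7% of its 191 Nkg7 UMIs in cells with Cd8b1 came from 3 cells; without Nkg7 it was at 52.2 CPM in cells with and 61.4 CPM in cells without (0.851, 0.640 to 1.11). Gzmb, chosen after its value was seen as the leading gene of that contrast, was at 51.3 CPM in cells with and 7.01 CPM in cells without; its 58 UMIs lay in 7 cells, 86.2% of them in 3. The 6 thymocyte genes summed to 18.6 CPM in tumour cells with and 22.1 CPM in those without Cd8b1 (0.843, 0.636 to 1.10), and to 24.8 CPM in lymph node cells with and 26.5 CPM in those without (0.935, 0.609 to 1.38). Of their UMIs in cells with Cd8b1, Cd1d1 gave 64 of 67 in tumour and 28 of 28 in lymph node, and Rag1 and Rag2 were at 0 in cells with and without Cd8b1. Melanoma markers were at 27.3 CPM in tumour cells with and 35.0 CPM in those without Cd8b1, B cell markers at 8.90 CPM in cells with and 9.94 CPM in cells without, and macrophage markers at 5.56 CPM in cells with and 7.27 CPM in cells without.

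All 14 cells with at least 3 Cd8b1 UMIs, 11 in tumour and 3 in lymph node, had UMIs of Cd4, Cd3e, Cd3d, Cd3g, Ikzf2, Tnfrsf18 and Izumo1r. Il2ra was at 0 in 4 of them and Foxp3 in 9, including all 3 of lymph node. Nkg7 was found in 11, with up to 69 UMIs. Of the other genes looked up, Gzmk, Klrd1, Eomes, Cd79a and Lyz2 had no UMI in any, and 12 were cycling. The tumour cell with most UMIs among them, 35733, had 4 of Cd8b1, 5 of Cd4, 43 of Cd3g and 30 of Ikzf2. The shallowest of the tumour cells, with 9290 UMIs, had 3 of Cd8b1, 8 of Cd4, 24 of Cd3g and 9 of Ikzf2. Of the lymph node cells, 1 with 5 Cd8b1 UMIs had 1 of Cd4, 22 of Cd3g and 32 of Ikzf2 among 20774 UMIs.

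Cells with Cd8b1 were more often cycling at full depth, 72.1% against 52.8% in tumour and 11.4% against 3.69% in lymph node, as deeper cells are in both tissues. When cells were grouped by a Cd8b1 UMI left after thinning, which 55 tumour and 74 lymph node cells had, the cycling shares were 61.8% against 55.8% in tumour and 2.70% against 4.32% in lymph node. In this grouping Cd3g was detected in 90.9% of tumour cells with and 90.8% of those without Cd8b1, Ikzf2 in 89.1% against 81.7%, and Cd4 in 18.2% against 30.6%. In lymph node the corresponding shares, with and without Cd8b1, were 86.5% against 82.5% for Cd3g, 47.3% against 56.0% for Ikzf2, and 24.3% against 20.6% for Cd4. Doublets were not called, and their part in cells of very high UMI totals was not tested.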

How the data were processed

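The authors deposited 1 unfiltered matrix of UMI counts per library, not normalized, from 10x Chromium 3′ libraries; per the submitters' processing notes Cell Ranger and mm10 were used. The authors' barcode and gene files hold names only. Cell limits are given in the report; each UMI threshold is 10% of the total at the 99th percentile among the 3000 largest barcodes. Melanoma barcodes had at least 20 UMIs of Pmel, Dct and Mlana, macrophages at least 3 of C1qa, C1qb and Lyz2, and B cells at least 2 of Cd79a and Ms4a1. This left 16669263 UMIs in tumour cells and 10681101 in lymph node cells; 1 barcode occurs in both libraries. Counts were summed over cells and given as CPM; single sums have exact Poisson intervals and shares Clopper-Pearson 95% intervals. Intervals cover counting error only, and cells are not replicates. Clusters were made per library with scanpy 1.11.5 (2000 variable genes, 30 components, 15 neighbours, Leiden resolution 0.6). Calculations used Python 3.11.15 and SciPy 1.17.1, with TMM from edgeR 4.0.16 as an alternative. Ratios and thinning were tested on simulated data. Named genes are the 9 members, up to 5 of each pathway list by the interval bound farthest from 1, and the gene most like each member; Syk and the single marker genes in cells with Cd8b1 were named after their values were seen; 1 gene of the kinase list is not reported here and not counted. Members and lists were chosen with earlier results of these data known.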

Additional observations from a re-analysis of the deposited data

Results flagged for a closer look

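Effects that pointed in opposite directions in 2 groups were singled out for Cd8b1, Lck and Zap70; none of these differences was tested, and with 1 library per tissue none can be. Cd8b1 had a cycling over other ratio of 0.963 in tumour and 1.19 in lymph node, and a tumour over lymph node ratio of 0.942 in cycling cells and 1.17 in other cells. All 4 intervals include 1, on as few as 28 UMIs. Lck had a tumour over lymph node ratio of 1.20 in cycling cells (1.10 to 1.31) and 0.973 in other cells (0.930 to 1.02). Zap70 had a cycling over other ratio of 0.906 in tumour (0.840 to 0.978) and 1.23 in lymph node (1.05 to 1.43). Outside the cells, 5 Cd8a UMIs were found in tumour barcodes with 1 to 120 UMIs in total, and none in lymph node barcodes.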

How the results depend on the processing

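No paired analysis was possible because each tissue has 1 library and no comparison has a test. The count of 0 of 9 genes at least 2-fold apart between tissues held under 9 of 10 alternatives (TMM scaling, equal weight per cell, thinning, cells with a Foxp3 UMI, other limits on cells); without cycling cells it was 1 (Cd4). The directions of Zap70, Cd4, Cd3g and Cd3d held under all 10; Lck and Lat kept their sign, but without cycling cells both intervals include 1, as that of Cd8b1 does in the pooled cells. The number of all genes 2-fold apart was 2081, and 3140 with a minimum of 10 UMIs or 5768 with 1. The share of cells with a UMI was higher in tumour for 6 of the 9, and for 6 to 8 under other settings, though not always the same genes. In cells with a Foxp3 UMI, the Cd3d share was lower in tumour, at 83.6% against 87.7% in lymph node. The Lck share was higher there in tumour, at 69.3% against 63.5% in lymph node. Cycling against other cells gave 0 calls throughout in tumour, and 1 in lymph node within the common UMI range (Cd8b1, log2 ratio -1.09, 21 cycling cells). Of tumour cells 16.7% had a Cd8b1 UMI, and of lymph node cells 7.58%. Thinned, the shares were 3.77% and 3.36%; with at least 2 UMIs, 4.39% and 0.636%; and without cycling cells, an alternative added after seeing the data, 10.6% in tumour and 7.02% in lymph node. The log2 ratio of Treg markers in cells with over without Cd8b1 was -0.13 in tumour, where it was -0.170 after thinning, -0.068 with at least 2 UMIs and, in added alternatives, -0.089 when grouped after thinning and 0.094 without cycling cells. In lymph node it was -0.15, and -0.081, 0.074, 0.0056 and -0.028 under the same settings. Fewer UMIs per cell set the lower shares after thinning; the cause of the other shifts was not tested.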
